A study of Danio rerio with 4 samples.

Results

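The 9 genes described here are grouped as motor neuron genes, and several of them are also known from other cells. They comprise the LIM homeodomain genes isl1, isl2a, isl2b, lhx3 and lhx1a, the Mnx homeodomain genes mnx1 and mnx2b, and the cholinergic genes chata and slc18a3a. They were found by name in the table, where lhx3 is spelled LHX3, and they are 9 of its 26812 genes. The set was chosen by a rule that drew on measured values of these same 4 libraries, so the differences between libraries given below are descriptions of the chosen genes and carry no test.

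Whole embryos were sequenced in 4 libraries. There was 1 library each of embryos labelled KDM5A-KO and of WT embryos at 48 hpf (hours post fertilization), and 1 library each of KDM5A-KO and WT embryos at 24 hpf. KDM5A, the targeted gene, encodes a histone demethylase that removes methyl groups from lysine 4 of histone H3. The study's text describes the use of CRISPR/Cas9 against it. The sample titles mark the KDM5A-KO libraries with "mo" and their protocol says that KO fish were mated, whereas the study's methods describe injection of a guide RNA and a Cas9 plasmid into the yolk. Injected embryos can be mosaic, and which of these descriptions holds for the libraries is not settled here. The WT embryos are the wild-type strain of the study with no treatment named, and the RNA of each group came from pooled embryos according to the methods, which describe 24 hpf only.

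In the vertebrate spinal cord, motor neurons arise from ventral progenitors that express olig2, and they turn on LIM homeodomain proteins as they leave the cell cycle. Isl and Lhx3 proteins bind together through the adaptor Ldb1 and switch on motor neuron genes, and Mnx proteins hold down interneuron genes in the same cells. The cholinergic genes come later in this sequence and let the neuron make acetylcholine and load it into vesicles. Several of the 9 genes are also known from other cells: isl1 from the heart, the pancreas and sensory neurons, isl2b from retinal ganglion cells and sensory neurons, lhx3 from V2 interneurons and the pituitary, and lhx1a from spinal interneurons, the retina and the kidney. In RNA of whole embryos, fewer cells of a type and less RNA per cell cannot be told apart.

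Levels are given in FPKM (sequenced fragments divided by gene length in kilobases and by library size). The reads behind them were recovered from the steps of the values, and the totals were 15922314 reads in KDM5A-KO and 15525056 in WT embryos at 48 hpf, and 14724748 in KDM5A-KO and 7441797 in WT embryos at 24 hpf. The WT library of 24 hpf therefore had the lowest depth, and 12.5% of its reads fell on ribosomal RNA genes, against 0.341% to 0.555% in the other 3 libraries. Counted here were the genes annotated as ribosomal RNA and all genes within 15 kb of some of these. KDM5A mRNA stood at 16.3 FPKM in KDM5A-KO and 18.1 FPKM in WT embryos at 48 hpf, and at 20.3 FPKM in KDM5A-KO and 13.8 FPKM in WT embryos at 24 hpf. It was thus not lower in the KDM5A-KO library of 24 hpf, and the level of an edited mRNA need not fall, so these values leave the KO label unchecked and the libraries are called KDM5A-KO by their label alone. The columns were assigned to the libraries by their letters and numbers, which is an inference. Every direction below, between KDM5A-KO and WT and between 24 and 48 hpf, rests on it.

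Each ratio is given with an exact (Clopper-Pearson) 95% interval from the reads. With 1 library per group there is no replicate, and these intervals cover counting error only. A gene is said to have risen or fallen where log2((first + 1)/(second + 1)) of FPKM passed 2-fold. Gene positions are those of the deposited table, whose zebrafish genome build is not given in the sources used here. The multi-mapping of reads between the paralogs isl2a and isl2b, or mnx1 and mnx2b, was not described in the sources used here.

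At 48 hpf, 4 of the 9 genes fell in KDM5A-KO embryos, and all of them belong to the LIM homeodomain group: isl1, isl2b, lhx3 and lhx1a. None rose. Both Mnx genes and both cholinergic genes stayed within 2-fold of WT. Over all 26812 genes, 3.49% fell and 2.56% rose past 2-fold, and 4.65% fell among the 17416 genes with a mean FPKM of at least 1. The median log2 ratio was -0.35 for the 9 genes and -0.03 for the genes with a mean FPKM of at least 1.

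**Figure D1:**
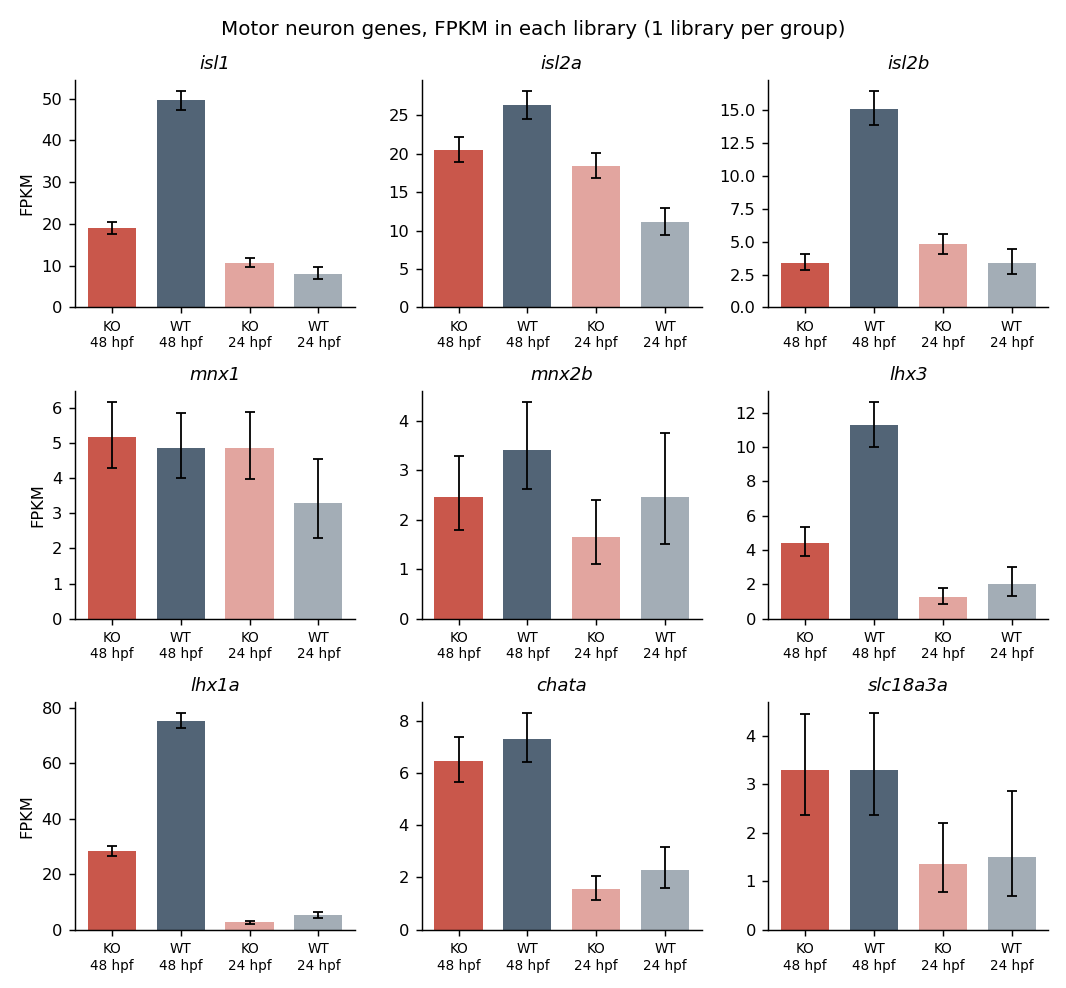
FPKM of each of the 9 genes in the 4 libraries, KDM5A-KO (red) left of WT (blue-grey) at 48 hpf and then at 24 hpf (paler), with exact 95% counting intervals as error bars and 1 library per bar. At 48 hpf the KDM5A-KO bar of isl1 stands at 19.1 FPKM beside a WT bar of 49.6 FPKM, while the bars of slc18a3a are both at 3.29 FPKM.

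The Islet genes differed widely from each other at 48 hpf. isl1 (ENSDARG00000004023, chromosome 5, 40128460 to 40133892, minus strand) encodes the LIM homeodomain factor that is required for motor neurons to form in the mouse. It had 19.1 FPKM (700 reads) in KDM5A-KO embryos and 49.6 FPKM (1773 reads) in WT embryos at 48 hpf, a ratio of 0.385 (0.352 to 0.420). isl2b (ENSDARG00000053499, chromosome 7, 29721739 to 29726294, plus strand) showed the lowest ratio of the 9 genes, 0.225 (0.182 to 0.275), from 3.40 FPKM (118 reads) in KDM5A-KO embryos and 15.1 FPKM (512 reads) in WT embryos. Its paralog isl2a (ENSDARG00000003971, chromosome 25, 32338903 to 32345058, minus strand), which in zebrafish is known from the caudal primary motor neurons, did not pass 2-fold. It had 20.5 FPKM (611 reads) in KDM5A-KO embryos and 26.3 FPKM (765 reads) in WT embryos, with a ratio of 0.779 (0.699 to 0.867) that lay below 1 beyond counting error. The intervals of the paralogs isl2a and isl2b did not overlap.

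The Lhx genes fell by similar factors although their levels differed. lhx3 (ENSDARG00000003803, chromosome 5, 71028034 to 71046618, plus strand), the partner of Isl proteins in motor neurons, had 4.43 FPKM (117 reads) in KDM5A-KO embryos and 11.3 FPKM (290 reads) in WT embryos at 48 hpf, a ratio of 0.393 (0.315 to 0.489). lhx1a (ENSDARG00000014018, chromosome 15, 27770533 to 27777699, minus strand), which in limbed vertebrates marks motor neurons of the lateral column, was the most abundant of the 9 genes at this time. It had 28.4 FPKM (1114 reads) in KDM5A-KO embryos and 75.4 FPKM (2884 reads) in WT embryos, a ratio of 0.377 (0.351 to 0.404). The intervals of isl1, lhx3 and lhx1a overlapped one another, and that of isl2b lay below all of them.

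The Mnx genes, whose proteins keep interneuron programmes off in motor neurons, showed no such gap. mnx1 (ENSDARG00000035984, chromosome 7, 40367193 to 40369989, plus strand) had 5.17 FPKM (121 reads) in KDM5A-KO embryos and 4.87 FPKM (111 reads) in WT embryos at 48 hpf, and its ratio of 1.06 (0.815 to 1.39) was the only one of the 9 above 1. mnx2b (ENSDARG00000030350, chromosome 1, 4751972 to 4757697, minus strand) had 2.45 FPKM (45 reads) in KDM5A-KO embryos and 3.41 FPKM (61 reads) in WT embryos, a ratio of 0.719 (0.478 to 1.07). Both intervals held 1. That of mnx2b reaches past a 2-fold fall on the FPKM scale, so a fall of that size lies within its counting error, whereas that of mnx1 lies above the intervals of the 4 genes that fell.

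The cholinergic genes lie next to each other on the minus strand of chromosome 13, with 717 bases between their annotated spans. chata (ENSDARG00000015854, 29278909 to 29290881) encodes choline acetyltransferase, which makes acetylcholine. It had 6.47 FPKM (217 reads) in KDM5A-KO embryos and 7.31 FPKM (239 reads) in WT embryos at 48 hpf, a ratio of 0.885 (0.733 to 1.07). slc18a3a (ENSDARG00000006356, 29291599 to 29294004) encodes the transporter that loads acetylcholine into synaptic vesicles. It had 3.29 FPKM in both libraries, from 42 reads in KDM5A-KO and 41 reads in WT embryos, and a ratio of 0.999 (0.634 to 1.57). The interval of chata leaves out a 2-fold difference in either direction, and so does that of slc18a3a, from fewer reads. For slc18a3a, as for every gene, the recovered reads are the smallest number that the values allow. Its whole span is 3 times the length found, and its interval may therefore be wider than the data warrant.

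**Figure D2:**
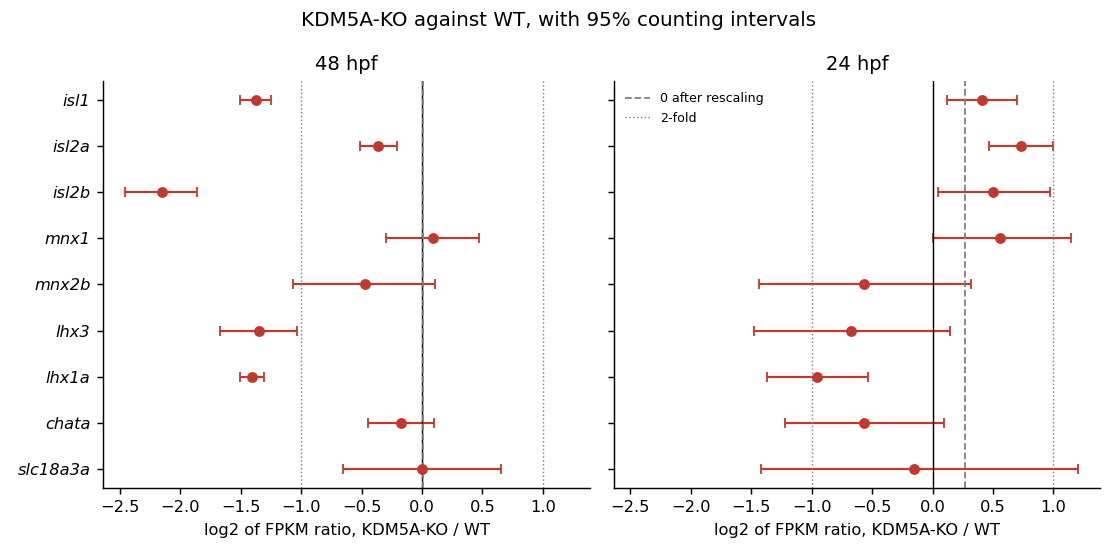
Log2 of the FPKM ratio of KDM5A-KO to WT for each of the 9 genes, at 48 hpf (left) and 24 hpf (right), with exact 95% counting intervals, 2-fold lines dotted and the zero point after rescaling dashed. At 48 hpf isl1, isl2b, lhx3 and lhx1a lie left of the lower 2-fold line, and at 24 hpf the Islet genes and mnx1 lie right of 0.

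Added up, the 4 genes that fell gave 55.3 FPKM in KDM5A-KO embryos and 151 FPKM in WT embryos at 48 hpf, and the other 5 gave 37.9 FPKM in KDM5A-KO and 45.2 FPKM in WT embryos. This split follows the values themselves and describes how far the genes lay apart, and lhx1a and isl1 make up most of both sums of the genes that fell. At 24 hpf the same 4 genes summed to 19.6 FPKM in KDM5A-KO and 18.8 FPKM in WT embryos.

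At 24 hpf the picture was mixed. None of the 9 genes rose or fell past 2-fold in KDM5A-KO embryos, where 2.72% of all genes rose and 1.32% fell. The 3 Islet genes and mnx1 had ratios above 1, while mnx2b, lhx3, lhx1a, chata and slc18a3a had ratios below 1. The median log2 ratio was -0.09 for the 9 genes and 0.20 for the genes with a mean FPKM of at least 1.

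The Islet genes were all higher in KDM5A-KO embryos at 24 hpf by the deposited values. isl1 had 10.8 FPKM (365 reads) in KDM5A-KO embryos and 8.11 FPKM (139 reads) in WT embryos, a ratio of 1.33 (1.09 to 1.63). isl2a had 18.4 FPKM (508 reads) in KDM5A-KO embryos and 11.1 FPKM (155 reads) in WT embryos, and its ratio of 1.66 (1.38 to 2.00) was the highest of the set. isl2b had 4.80 FPKM (154 reads) in KDM5A-KO embryos and 3.39 FPKM (55 reads) in WT embryos, a ratio of 1.42 (1.03 to 1.96). At this time the intervals of the 3 Islet genes overlapped one another, unlike at 48 hpf. mnx1 was alike, with 4.85 FPKM (105 reads) in KDM5A-KO embryos, 3.29 FPKM (36 reads) in WT embryos and a ratio of 1.47 (1.00 to 2.22).

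On the other side, lhx1a had the lowest ratio at 24 hpf, 0.516 (0.386 to 0.690), with 2.73 FPKM (99 reads) in KDM5A-KO embryos and 5.29 FPKM (97 reads) in WT embryos. lhx3 had 1.27 FPKM (31 reads) in KDM5A-KO embryos and 2.02 FPKM (25 reads) in WT embryos, a ratio of 0.627 (0.358 to 1.11). These Lhx genes were thus below WT at both times, lhx1a beyond counting error and lhx3 within it at 24 hpf. The rest of the set was low, and its intervals all held 1. chata had 1.55 FPKM (48 reads) in KDM5A-KO embryos and 2.30 FPKM (36 reads) in WT embryos, a ratio of 0.674 (0.428 to 1.07). mnx2b had 1.65 FPKM (28 reads) in KDM5A-KO embryos and 2.45 FPKM (21 reads) in WT embryos. slc18a3a had 1.35 FPKM (at least 16 reads) in KDM5A-KO embryos and 1.51 FPKM (at least 9 reads) in WT embryos, a ratio of 0.898 (0.374 to 2.31). This interval reaches past 2-fold in either direction. It rests on the smallest reads that the values allow, and it may be wider than the data warrant.

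The values at 24 hpf also depend on how the libraries are scaled, and the WT library with the ribosomal reads is one of this pair. Rescaling by median-of-ratios size factors over 14596 genes moved every log2 ratio at 24 hpf by -0.27, against -0.01 at 48 hpf. Relative to that shift, isl1 stood at 0.14 (-0.15 to 0.43), isl2b at 0.23 (-0.22 to 0.70) and mnx1 at 0.29 (-0.27 to 0.88) on the log2 scale of the FPKM ratio, so that their intervals held 0. isl2a remained above WT at 0.46 (0.20 to 0.73). lhx1a stood at -1.23 (-1.64 to -0.81), lhx3 at -0.94 (-1.75 to -0.12) and chata at -0.84 (-1.49 to -0.17), all below WT beyond counting error. No gene of the 9 changed sign under this rescaling.

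Between 24 and 48 hpf more of the 9 genes rose in WT embryos than in KDM5A-KO embryos, and lhx3, lhx1a and chata rose in both. In WT embryos all 9 were higher at 48 hpf and 6 rose past 2-fold, against 12.4% of all genes and 16.6% of those with a mean FPKM of at least 1. In KDM5A-KO embryos 8 were higher at 48 hpf and 3 rose past 2-fold, against 6.34% of all genes and 9.20% of those with a mean FPKM of at least 1. The median log2 ratio of 48 to 24 hpf was 1.33 in WT and 0.77 in KDM5A-KO embryos. The summed level of the 9 genes was 93.2 FPKM at 48 hpf and 47.4 FPKM at 24 hpf in KDM5A-KO embryos, and 197 FPKM at 48 hpf and 39.5 FPKM at 24 hpf in WT embryos.

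**Figure D3:**
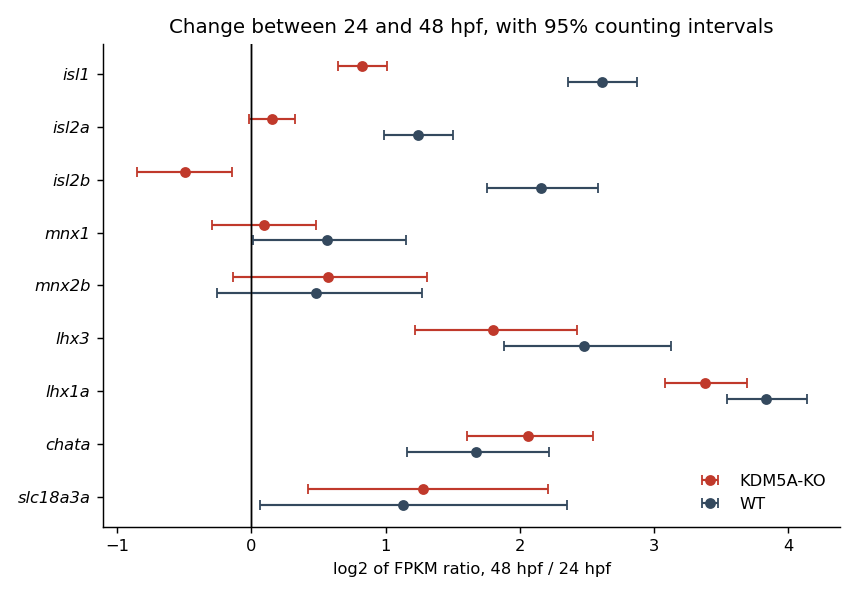
Log2 of the FPKM ratio of 48 to 24 hpf for each of the 9 genes in KDM5A-KO (red, above) and WT embryos (blue-grey, below), with exact 95% counting intervals. The points of the 3 Islet genes lie apart between KDM5A-KO and WT, isl2b on opposite sides of 0, while those of chata and slc18a3a overlap.

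The intervals of KDM5A-KO and WT embryos were apart for the 3 Islet genes. The level of isl1 at 48 hpf was 1.77 times (1.56 to 2.02) that at 24 hpf in KDM5A-KO embryos and 6.11 times (5.14 to 7.32) in WT embryos. For isl2a the ratios were 1.11 (0.987 to 1.25) in KDM5A-KO and 2.37 (1.99 to 2.83) in WT embryos. isl2b, which labels retinal ganglion cells and sensory neurons in zebrafish reporter lines, was the only gene that was lower at 48 than at 24 hpf, with a ratio of 0.709 (0.553 to 0.907) in KDM5A-KO embryos, against 4.46 (3.37 to 6.01) in WT embryos. In FPKM gained between the times by the deposited values, KDM5A-KO embryos reached 20.1% of the WT gain for isl1 and 13.6% for isl2a.

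The other LIM homeodomain genes rose in both genotypes. lhx1a had by far the steepest rise, 10.4 times (8.47 to 12.9) in KDM5A-KO and 14.3 times (11.6 to 17.6) in WT embryos. lhx3 rose 3.49 times (2.33 to 5.37) in KDM5A-KO and 5.56 times (3.69 to 8.74) in WT embryos. Here the intervals of the genotypes overlapped, and the gap in their levels was already there at 24 hpf for lhx1a. The KDM5A-KO gain was 36.6% of the WT gain for lhx1a and 34.2% for lhx3.

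The cholinergic genes gained about as much in both genotypes. chata rose 4.18 times (3.05 to 5.84) in KDM5A-KO and 3.18 times (2.23 to 4.65) in WT embryos, and its gain in KDM5A-KO embryos was 98.2% of that in WT, with 108% for slc18a3a. The transporter gene did not pass 2-fold on the scale used for the calls. Its ratios were 2.43 (1.34 to 4.63) in KDM5A-KO and 2.18 (1.05 to 5.11) in WT embryos. The Mnx genes stayed within 2-fold in either genotype: mnx1 had a ratio of 1.07 (0.814 to 1.40) in KDM5A-KO and 1.48 (1.01 to 2.22) in WT embryos, and mnx2b one of 1.49 (0.907 to 2.47) in KDM5A-KO and 1.39 (0.836 to 2.41) in WT embryos. By the deposited values the KDM5A-KO gain was 20.3% of the WT gain for mnx1, as low a share as for isl1, and 83.5% for mnx2b. The WT gains were only 1.57 FPKM for mnx1 and 0.961 FPKM for mnx2b. Unlike those of isl1, the intervals of KDM5A-KO and WT embryos overlapped for both Mnx genes, and the KDM5A-KO gain of mnx1 was within counting error. Rescaling moved the log2 ratios of 48 to 24 hpf by 0.15 in KDM5A-KO and by -0.10 in WT embryos. Relative to that, isl2b in KDM5A-KO embryos stood at -0.34 with an interval that held 0 (-0.70 to 0.01). In KDM5A-KO embryos isl2a at 0.31 (0.14 to 0.48) and mnx2b at 0.73 (0.01 to 1.46) then lay above 0 beyond counting error, which they did not as deposited. In WT embryos mnx1 at 0.46 (-0.10 to 1.04) and slc18a3a at 1.02 (-0.04 to 2.25) came to hold 0.

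Because FPKM is a value per length, levels can also be ranked between genes. In KDM5A-KO embryos of 48 hpf the order was lhx1a, isl2a, isl1, chata, mnx1, lhx3, isl2b, slc18a3a and mnx2b, and the intervals of neighbours were apart only between lhx1a and isl2a and between isl1 and chata. In WT embryos of 48 hpf it was lhx1a, isl1, isl2a, isl2b, lhx3, chata, mnx1, mnx2b and slc18a3a, and only mnx1 and mnx2b, and mnx2b and slc18a3a, had neighbouring intervals that overlapped. So isl2b and lhx3 stood above chata and mnx1 in WT and below them in KDM5A-KO embryos. At 24 hpf isl2a led in both genotypes, with isl1 next, and their intervals were apart in KDM5A-KO and overlapped in WT embryos. Below them, in KDM5A-KO embryos only isl2b and lhx1a among neighbours from mnx1 downward had intervals apart, and in WT embryos none did from lhx1a downward.

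Other genes of the motor neuron pathway and of the cell types that share the 9 genes were taken from lists, each given by its counts at 48 hpf. The proteins closest to the set, other LIM homeodomain and Mnx genes, had 13 measured members, of which 2 fell and none rose, with a median log2 ratio of -0.41. lhx4, the close relative of lhx3, fell to 5.28 FPKM in KDM5A-KO embryos, against 20.4 FPKM in WT embryos. lhx9, known from dorsal interneurons and the forebrain, fell to 16.2 FPKM in KDM5A-KO embryos, against 44.2 FPKM in WT embryos. lhx5 had 14.3 FPKM in KDM5A-KO and 25.9 FPKM in WT embryos. The Mnx paralog mnx2a, named here after its values were seen, had 7.61 FPKM in KDM5A-KO and 7.48 FPKM in WT embryos.

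LIM cofactors are the adaptors that join LIM homeodomain proteins to each other and the LMO proteins that compete for the adaptors. Of 10 measured, 3 fell and none rose, with a median of -0.74. lmo3 fell to 13.4 FPKM in KDM5A-KO embryos, against 42.3 FPKM in WT embryos, and lmo1 fell to 10.0 FPKM in KDM5A-KO embryos, against 24.9 FPKM in WT embryos. The third was ldb2b, an adaptor gene. ldb1a, the adaptor of the Isl and Lhx3 complex, had 34.2 FPKM in KDM5A-KO and 58.5 FPKM in WT embryos, a ratio of 0.584 (0.554 to 0.615), and ssbp3b, whose protein stabilises that adaptor, had 38.4 FPKM in KDM5A-KO and 64.3 FPKM in WT embryos.

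Motor neuron progenitors lie upstream of the 9 genes. None of 11 motor neuron progenitor genes rose or fell at 48 hpf, with a median of -0.03. Its most abundant genes were her6, a Hes-type repressor, with 61.8 FPKM in KDM5A-KO and 47.7 FPKM in WT embryos, and neurog1, a proneural factor, with 41.4 FPKM in KDM5A-KO and 42.4 FPKM in WT embryos. olig2, singled out after its values were seen because it defines the progenitor domain, had 18.3 FPKM in KDM5A-KO and 35.0 FPKM in WT embryos at 48 hpf. At 24 hpf it fell to 5.93 FPKM in KDM5A-KO embryos, against 13.0 FPKM in WT embryos.

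None of 8 other genes of cholinergic transmission rose or fell, with a median of -0.02. Only 4 of the 8 had a mean FPKM of at least 1, and the others could hardly fall past 2-fold with the pseudocount of 1 FPKM, so this count says little about them. ache, the acetylcholinesterase gene, had 13.9 FPKM in KDM5A-KO and 12.8 FPKM in WT embryos. prima1, which anchors that enzyme in membranes, had a ratio of KDM5A-KO to WT of 1.34 (1.12 to 1.62). In the list for the nerve-muscle synapse, mostly of its muscle side, all 9 measured genes lay above WT, with a median of 0.56, and 1 rose past 2-fold. That gene, chrng, encodes the embryonic gamma subunit of the muscle acetylcholine receptor and rose to 16.8 FPKM in KDM5A-KO embryos, against 1.71 FPKM in WT embryos. chrna1, the alpha subunit, had 28.9 FPKM in KDM5A-KO and 20.0 FPKM in WT embryos.

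**Figure D4:**
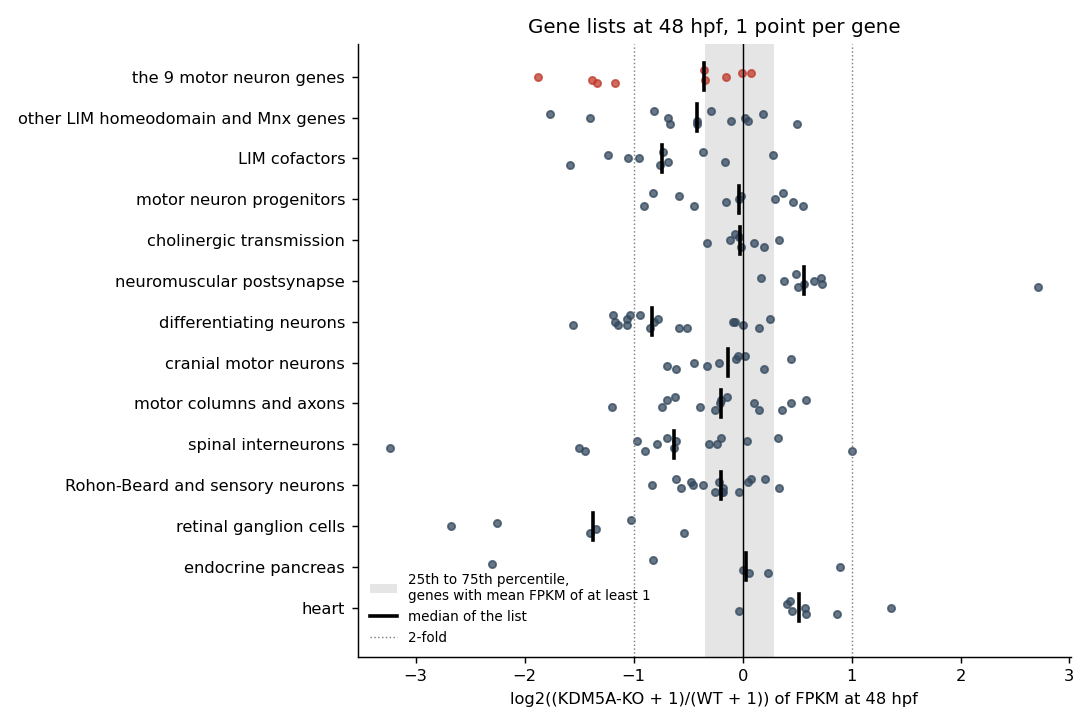
Log2((KDM5A-KO + 1)/(WT + 1)) of FPKM at 48 hpf for each gene of the 9 motor neuron genes (red) and of 13 other lists (blue-grey), with the median of each list as a black bar, 2-fold lines dotted and the 25th to 75th percentile of all genes with a mean FPKM of at least 1 in grey. The medians of retinal ganglion cell, differentiating neuron and LIM cofactor genes lie furthest to the left, at -1.37, -0.83 and -0.74.

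Genes of neurons in general were low as well. Of 18 genes of differentiating neurons 7 fell and none rose at 48 hpf, with a median of -0.83, and the summed level was 758 FPKM in KDM5A-KO and 1335 FPKM in WT embryos. tubb5, a tubulin gene, fell to 170.0 FPKM in KDM5A-KO embryos, against 349 FPKM in WT embryos. snap25b, which encodes a protein of vesicle fusion, fell to 14.5 FPKM in KDM5A-KO embryos, against 44.8 FPKM in WT embryos. elavl3, the pan-neuronal RNA-binding protein HuC, had 122 FPKM in KDM5A-KO and 183 FPKM in WT embryos. Of the 18 genes 15 lay below WT and 3 above it. The 3 above were the neurofilament genes nefma, nefmb and neflb. The neurofilament genes of this list, singled out after their values were seen, stayed within 2-fold of WT, and they go against most of the list. The ratio of KDM5A-KO to WT was 1.11 (1.02 to 1.22) for nefma, and neflb had 16.9 FPKM in KDM5A-KO and 14.0 FPKM in WT embryos, both above WT beyond counting error. The ratio was 1.00 (0.921 to 1.10) for nefmb and 0.933 (0.712 to 1.22) for nefla.

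Retinal ganglion cells use isl1 and isl2b, and 5 of the 6 genes of that list fell at 48 hpf while none rose, with a median of -1.37 and a summed level of 34.4 FPKM in KDM5A-KO and 104 FPKM in WT embryos. pou4f2, a regulator of ganglion cell identity, fell to 3.83 FPKM in KDM5A-KO embryos, against 29.9 FPKM in WT embryos. pou4f3 fell to 0.441 FPKM in KDM5A-KO embryos, against 5.89 FPKM in WT embryos, and was listed at 0 in both libraries of 24 hpf. At 24 hpf the list summed to 16.9 FPKM in KDM5A-KO and 10.8 FPKM in WT embryos, and much of that gap came from 1 gene, rbpms2b, named after its values were seen, with 6.74 FPKM in KDM5A-KO and 2.37 FPKM in WT embryos. pou4f2 had 0.976 FPKM in KDM5A-KO and 1.14 FPKM in WT embryos at that time. pou4f3 and atoh7 aside, every gene of the list was above 0 in all libraries. The part of these cells in the levels of isl1 and isl2b was not tested.

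Spinal interneurons share lhx3 and lhx1a. Of 15 genes of that list 3 fell, with a median of -0.63 and a summed level of 172 FPKM in KDM5A-KO and 314 FPKM in WT embryos. vsx1, also known from bipolar cells of the retina, fell to 11.8 FPKM in KDM5A-KO embryos, against 119 FPKM in WT embryos. This gene alone made up most of the gap between the summed levels. gad2, an enzyme of GABA synthesis, fell to 6.94 FPKM in KDM5A-KO embryos, against 21.5 FPKM in WT embryos. The third gene that fell was tal1, a factor of V2b interneurons and of blood. The part of interneurons in the levels of lhx3 and lhx1a was not tested.

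The medians of the lists of other motor and sensory neurons lay nearer to 0. Among 10 cranial motor neuron genes none rose or fell at 48 hpf, with a median of -0.14, and 7 lay below WT and 3 above it. The most abundant were tbx2b, with 35.7 FPKM in KDM5A-KO and 35.2 FPKM in WT embryos, and gata3, with 22.1 FPKM in KDM5A-KO and 36.2 FPKM in WT embryos. Named after its values were seen, phox2bb had a ratio of KDM5A-KO to WT of 0.718 (0.633 to 0.815). Its relative phox2a, named in the same way, had a ratio of 1.17 (1.02 to 1.34). Of 14 genes of motor columns and axons 1 fell, with a median of -0.20. That gene was ebf3a, a factor of differentiating neurons, which fell to 26.2 FPKM in KDM5A-KO embryos, against 61.6 FPKM in WT embryos. pou3f1 had 79.0 FPKM in KDM5A-KO and 91.3 FPKM in WT embryos. Among 16 genes of Rohon-Beard and other sensory neurons, which share the Islet genes, none rose or fell, with a median of -0.20. Of these, 12 lay below WT and 4 above it. Only 12 of the 16 had a mean FPKM of at least 1, and for levels near the pseudocount of 1 FPKM the log2 ratios are pulled towards 0. prdm1a, needed for Rohon-Beard neurons in zebrafish, had 11.7 FPKM in KDM5A-KO and 13.4 FPKM in WT embryos, and fgf13a had 9.59 FPKM in KDM5A-KO and 13.7 FPKM in WT embryos.

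Outside the nervous system, the medians of the lists of tissues that use isl1 were not below 0. Of 8 heart genes 1 rose at 48 hpf and none fell, with a median of 0.51. tnnt2a, cardiac troponin T, rose to 7.45 FPKM in KDM5A-KO embryos, against 2.29 FPKM in WT embryos, and myl7, a cardiac myosin light chain, had 16.7 FPKM in KDM5A-KO and 8.72 FPKM in WT embryos. At 24 hpf all 8 heart genes lay above WT and 3 rose, with a median of 0.91 and a summed level of 71.0 FPKM in KDM5A-KO and 28.5 FPKM in WT embryos. isl1 also lay above WT at that time, and the part of the heart in its level was not tested. Of 6 genes of the endocrine pancreas only 4 had a mean FPKM of at least 1, so counts of this list say little about the others. In this list 1 gene fell, with a median of 0.03. That gene was neurod1, which is also expressed in many differentiating neurons, and it fell to 16.3 FPKM in KDM5A-KO embryos, against 84.2 FPKM in WT embryos. arxa, which is also a forebrain gene, had 18.8 FPKM in KDM5A-KO and 18.0 FPKM in WT embryos. In this list 3 genes lay above WT and 2 below it. pdx1, named here after its values were seen, had 2.14 FPKM (38 reads) in KDM5A-KO and 0.692 FPKM (12 reads) in WT embryos. Its ratio of 3.09 (1.58 to 6.49) lay above 1 beyond counting error, but with the pseudocount it did not pass 2-fold.

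At 24 hpf, none of the other LIM homeodomain and Mnx genes or the LIM cofactors rose or fell, with medians of 0.18 and -0.04. The median of genes with a mean FPKM of at least 1 was 0.20 at that time. After median-of-ratios rescaling the medians of these lists were -0.05 and -0.25. Between the times, 5 of the 13 other LIM homeodomain and Mnx genes rose in KDM5A-KO embryos and 7 in WT embryos. For the 18 genes of differentiating neurons the counts were 14 in KDM5A-KO and 17 in WT embryos, and for the 6 retinal ganglion cell genes they were 2 in KDM5A-KO and 6 in WT embryos. Whether the genotypes differ in these counts was not tested.

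The mean pattern of the 9 genes over the 4 libraries was compared with those of 17348 other genes by the root mean square distance of centred log2(FPKM + 1) values. The nearest included CABZ01112804.2, sh3bgrl2, kif19 and XKR7, at distances of 0.018 to 0.024. CABZ01112804.2 had 13.8 FPKM in KDM5A-KO and 23.9 FPKM in WT embryos at 48 hpf, and 7.45 FPKM in KDM5A-KO and 7.26 FPKM in WT embryos at 24 hpf. The 9 genes lay further from their own mean than this, at 0.27 for chata, the nearest, to 1.10 for lhx1a, the furthest, so the mean pattern describes none of them closely.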

How the data were processed

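RNA sequencing of zebrafish embryos was analysed in 4 libraries, 1 per group. The authors checked reads with FastQC 0.11.5, filtered them with NGSQC, aligned them with HISAT2 2.1.0, quantified genes with StringTie 1.3.3b and ran DESeq 1.28.0. The deposited values are FPKM for 26812 Ensembl genes. The submitters' processing notes name mm10, a mouse build, while the identifiers are zebrafish ones. Positions are those of the deposited table, and their zebrafish build is not given in the sources used here. The labels name a SMARTER library kit and the methods another kit.

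The smallest gene lengths that make all 4 values whole reads (within 0.001 reads) were found for 100% of genes, and the reads summed to 98.2% to 98.5% of the totals. Depth was 7441797 to 15922314 reads. Ratios carry exact (Clopper-Pearson) 95% intervals. Log2 ratios used a pseudocount of 1 FPKM, and calls a 2-fold threshold on that scale. Scripts were tested on simulated data. The computation ran in Python 3.11.15 (pandas 2.3.3, scipy 1.17.1, numpy 2.4.6), and figures were drawn with matplotlib 3.10.9.

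The 9 genes and the gene lists were chosen with earlier results of these data known. From each other list up to 4 genes were named: the 2 highest in mean FPKM and up to 2 past 2-fold at 48 hpf with the largest log2 ratio. Others are marked where named. Symbols that matched no gene or several were left out. Results for some genes are not reported here. Alternatives were a pseudocount of 0.1 FPKM, median-of-ratios rescaling, totals without the 234 genes counted as rRNA, a 3-fold threshold, a filter at a mean FPKM of 1, and protein-coding genes only. The genes counted as rRNA include those within 15 kb of some annotated rRNA genes.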

Additional observations from a re-analysis of the deposited data

Results flagged for a closer look

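In 3 of the 9 genes the KDM5A-KO library lay below WT at 48 hpf and above WT at 24 hpf, with each group a single library. The difference in log2((KDM5A-KO + 1)/(WT + 1)), 48 minus 24 hpf, came to -1.70 for isl1, -1.03 for isl2a and -2.28 for isl2b. The signs were opposite as deposited, after median-of-ratios rescaling and with totals without rRNA genes. After that rescaling the log2 of the FPKM ratio at 24 hpf was 0.14 (-0.15 to 0.43) for isl1 and 0.23 (-0.22 to 0.70) for isl2b, both within counting error of 0, and 0.46 (0.20 to 0.73) for isl2a. The difference between the times was not tested, since no group has a replicate. All 3 are the Islet genes of the set. By the deposited values, the median log2 ratio of genes with a mean FPKM of at least 1 was likewise below 0 at 48 hpf (-0.03) and above 0 at 24 hpf (0.20). The share of all genes with this pattern of signs was not counted, so the 3 genes cannot be set against it.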

How the results depend on the processing

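No paired analysis was possible because no group holds more than 1 library. The log2 ratios of the 9 genes in the 4 comparisons, 36 values, kept their sign with a pseudocount of 0.1 FPKM, after median-of-ratios rescaling and with totals without rRNA genes, and 1 of them moved beyond its counting error, that of lhx1a between 48 and 24 hpf in KDM5A-KO embryos, with the smaller pseudocount. With a 3-fold threshold, 1 of the 9 genes fell at 48 hpf in place of 4. Between 24 and 48 hpf, 1 rose in KDM5A-KO embryos in place of 3, and 4 rose in WT embryos in place of 6. With a pseudocount of 0.1 FPKM these counts were 4 in KDM5A-KO and 7 in WT embryos. The shares of all genes that rose between the times were not counted at these settings, so these counts have no background beside them. Among all genes, the 729 that rose and 353 that fell at 24 hpf became 3029 and 1565 with a pseudocount of 0.1 FPKM and 214 and 117 with a 3-fold threshold. After median-of-ratios rescaling they were 433 and 496, and those that fell were 232 with a mean FPKM of at least 1 and 159 among protein-coding genes. At 48 hpf the 686 that rose and 935 that fell became 2027 and 2897 with the smaller pseudocount and 184 and 193 with the 3-fold threshold. The fewest recovered reads were those of mnx2b and slc18a3a, at 9 to 61 per library. As for every gene, these are the smallest numbers that the values allow, so the true depth may be higher.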
